A study of Mus musculus with 2 samples.

Results

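The genes described here are 33 neuronal genes of the mouse, out of 21938 protein-coding genes, read in a DNase-seq map of the embryonic limb. They are given as a list of names, with no threshold on any value: 13 transcription factors of the nervous system, 9 synaptic and transmitter genes, 6 genes of the neuronal cytoskeleton, 2 RNA-binding genes and 3 genes of secreted or granule proteins. Limb tissue came from embryos at day 14.5 of strain B6NCrl, with males and females pooled, as 1 group of 2 biological replicates that share a donor identifier. There is no other tissue, genotype or treatment, so values are compared between genes and between the replicates, and no test of a condition is possible. The list carries the name of genes closed or silenced in limb. Over all deposited peaks, 29 of the 33 genes had a peak at a transcription start site (TSS) in at least 1 replicate, beside 70.8% of all protein-coding genes, which goes against "closed" in the sense of no peak. Among the 50000 peaks of highest signal in each list, 13 of the 33 had one, beside 59.7% of all genes. Whether the genes were silent is not known from these files, since they hold no RNA values.

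DNase I cuts chromatin where nucleosomes are displaced, so a peak marks DNA that a regulatory protein or an active start site holds open. Neuron cell bodies that supply the limb lie outside it, in the spinal cord and ganglia, and only their axons enter it. In non-neuronal cells many genes of synapse and axon are kept off by the repressor REST, which binds a long DNA element called RE1 and recruits histone deacetylases and a histone demethylase. Genes of lineage-choosing neural transcription factors are instead typical targets of Polycomb complexes, which act on unmethylated CpG islands. Limb tissue is a mixture, so fewer open cells and less opening in each cell cannot be told apart.

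RE1 was searched on both strands as TTCAGCACC and GGACAGCGC, 2 bases apart, with at most 3 mismatches over the 18 fixed letters. The sites below are those with at most 1 mismatch, except that of Camk2a, with those of Neurod1, Neurod2, Syp and Syn1 added after their values were seen. They show how near the members' copies are to the element. Capitals are letters that match it, and lower case marks the spacer and mismatches.
Neurod1: TaCgGCACCatGGACAGCtC
Neurod2: TTCAGCACCacGGACAGaGa
Gad1: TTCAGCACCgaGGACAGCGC
Snap25: TTCAGCACCgcGGACAGCGa
Syp: TcCAGCACCgtGGACAGaGC
Syn1: TTCAGCACCgcGGtCAGaGC
Stmn2: TTCAGCACCacGGACAGCGC
Dcx: TTCAGCACCatGGACAGCaC
Rbfox3: TTCAGCACCagGaACAGCGC
Bdnf: TTCAGCACCttGGACAGaGC
Chga: TTCAGCACCtcGGACAGCaC
Gad1, which makes the transmitter GABA, and Stmn2, a regulator of axonal microtubules, each carry a copy that matches at every fixed letter. The copies of Syn1, a synaptic vesicle protein, and Neurod2, a neuronal basic helix-loop-helix factor, each have 2 mismatches, and that of Neurod1, its relative, has 3.

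The next sequences are open regions of the limb that hold such a copy, in the GRCm38 (mm10) assembly, read along the strand of the element, with the RE1 match in capitals. All but the last are whole peaks shared by both replicates. The Syn1 stretch runs from just upstream of its annotated 5′ UTR to just beyond its RE1, and the Syn1 peak (20920976 to 20921125) covers most of it.
Neurod1, chr2:79454236-79454385, minus strand: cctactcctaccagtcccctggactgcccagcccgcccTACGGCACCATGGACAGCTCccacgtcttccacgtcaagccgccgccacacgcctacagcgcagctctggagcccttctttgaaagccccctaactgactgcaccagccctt
Neurod2, chr11:98314156-98314305, minus strand: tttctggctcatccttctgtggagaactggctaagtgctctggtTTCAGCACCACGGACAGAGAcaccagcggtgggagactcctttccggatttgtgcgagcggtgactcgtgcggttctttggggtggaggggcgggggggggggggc
Gad1, chr2:70559636-70559785, minus strand: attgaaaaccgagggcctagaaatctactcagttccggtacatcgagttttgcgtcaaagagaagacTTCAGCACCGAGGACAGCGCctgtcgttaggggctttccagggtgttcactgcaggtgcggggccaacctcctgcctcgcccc
Stmn2, chr3:8508156-8508305, plus strand: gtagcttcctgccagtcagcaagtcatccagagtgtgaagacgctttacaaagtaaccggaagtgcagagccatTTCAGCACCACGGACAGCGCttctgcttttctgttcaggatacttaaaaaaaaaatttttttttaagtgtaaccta
Dcx, chrX:143904816-143904965, plus strand: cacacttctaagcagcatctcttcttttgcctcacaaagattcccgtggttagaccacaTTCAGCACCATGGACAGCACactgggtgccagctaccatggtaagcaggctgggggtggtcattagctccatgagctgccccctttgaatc
Rbfox3, chr11:118584936-118585085, minus strand: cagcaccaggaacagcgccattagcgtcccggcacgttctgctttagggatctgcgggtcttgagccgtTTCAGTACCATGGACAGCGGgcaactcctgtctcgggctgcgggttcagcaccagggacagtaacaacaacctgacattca
Chga, chr12:102555136-102555285, plus strand: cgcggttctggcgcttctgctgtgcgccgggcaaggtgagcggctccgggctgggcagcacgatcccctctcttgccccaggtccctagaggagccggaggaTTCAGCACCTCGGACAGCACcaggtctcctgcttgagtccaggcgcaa
Syn1, chrX:20921005-20921155, minus strand: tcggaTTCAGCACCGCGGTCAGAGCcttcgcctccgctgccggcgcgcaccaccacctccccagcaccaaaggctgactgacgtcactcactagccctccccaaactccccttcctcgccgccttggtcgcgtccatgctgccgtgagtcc
The Neurod1 peak lies in the exon that holds the coding sequence, and those of Neurod2 and Stmn2 in intergenic DNA. The peaks of Gad1, Dcx, Rbfox3 and Chga are in introns. In the Rbfox3 peak one more match, with 3 mismatches, follows the one in capitals, and another, with 1 mismatch, begins before its first base.

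A peak was given to a gene's TSS when it reached within 500 bp of any of its annotated start sites, and called shared when at least 50% of a replicate 1 peak lay under 1 replicate 2 peak. A shared TSS peak was present at 22 of the 33 neuronal genes (66.7%), beside 65.1% of all protein-coding genes. By class, 5 of 13 transcription factors (38.5%) and 13 of 15 synaptic and cytoskeletal genes (86.7%) had one. Replicate 1 alone gave 8 of 13 transcription factors and 14 of 15 synaptic and cytoskeletal genes, and replicate 2 alone 6 of 13 and 14 of 15. Among the 50000 peaks of highest signal in each list, 12 of the 33 genes had a shared one, with 1 of 13 transcription factors and 8 of 15 synaptic and cytoskeletal genes, beside 55.5% of all protein-coding genes. The members' share was thus near that of all genes over all peaks and below it among the stronger ones. The classes kept their order in each of these counts, and the difference between them was not tested. Values below are the authors' peak signal, a whole number whose scaling is not given in the sources used here, with its percentile, the share of the same list's peaks that have a lower signal.

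Among the transcription factors, Emx2, a homeobox gene of forebrain and urogenital tract, had the strongest TSS peak, with a signal of 108 in replicate 1 (percentile 94.7) and 92 in replicate 2 (percentile 96.1). Both Emx2 values lay beside the median of all genes that have a TSS peak, which was percentile 95.9 in replicate 1 and 95.4 in replicate 2. The antisense RNA gene Emx2os starts in the same window, so its opening cannot be separated from that of Emx2. Olig1, a factor of the oligodendrocyte lineage, had signals of 55 and 41 in replicates 1 and 2, and Eomes, a T-box factor of cortical progenitors, 50 and 36. Nkx2-2, which patterns the ventral spinal cord, had 49 and 24, and Emx1, a homeobox gene of the dorsal telencephalon, had 46 and 27. Emx1 also had a TSS peak with a signal of 28 in replicate 2, by an internal start site, 6653 bp inward of its outer 5′ end. These 4 genes had a shared peak that was weak or middling, with percentiles between 27.2 and 68.6.

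The other 8 transcription factors had no shared TSS peak. Neurod2, Neurod6, Neurog2 and Lhx6 had no TSS peak in either replicate. Of these, Neurod6 and Neurod2 act in maturing cortical neurons, Neurog2 is a proneural factor, and Lhx6 specifies cortical interneurons. Neurod1 had a TSS peak in replicate 2 alone, with a signal of 27, and it also reaches a start site of the neighbouring gene Cerkl. Neurog1, a proneural factor of sensory ganglia, had 2 TSS peaks in replicate 1, the stronger with a signal of 40, and none in replicate 2. Olig2, the neighbour of Olig1 that specifies motor neurons and oligodendrocytes, had 1 with a signal of 59 in replicate 1 and none in replicate 2.

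Tbr1, a T-box factor of deep-layer cortical neurons, had the widest gap in TSS peaks between the replicates. It had 9 TSS peaks in replicate 1, with signals of 23 to 61, and 0 in replicate 2. Hotspots, the broader regions of significant cutting, covered 3911 bp at its start sites in replicate 1 and 0 bp in replicate 2. Tbr1 also had 21 distal peaks in replicate 1 and 4 in replicate 2. It was the only one of 21938 genes with at least 9 TSS peaks in replicate 1 and none in replicate 2. That cut was set at its own count, so its place there was fixed in advance. Genes with at least 1 TSS peak in replicate 1 and none in replicate 2 numbered 575, of which 4 were members. The reverse held for 300 genes, of which 3 were members. Genes with at least 3 in replicate 1 and none in replicate 2 numbered 45, and the reverse held for 7. Over the 13 transcription factors the TSS peaks numbered 28 in replicate 1, 12 in replicate 2 and 8 shared, so 28.6% of those in replicate 1 recurred. The share was 75% for synaptic and cytoskeletal genes and 71.6% over all protein-coding genes. Tbr1 alone gave 9 of the 28. Set beside replicate 2, the shared TSS peaks were the greater part in both classes. They numbered 8 beside 12 for transcription factors and 15 beside 20 for synaptic and cytoskeletal genes. Over all protein-coding genes they numbered 25444 beside 34509. That part was still smallest for transcription factors. Their count was higher in replicate 1 than in replicate 2, and how far this bears on their low share was not tested. Emx1 and Nkx2-2 also had more TSS peaks in replicate 1, with 5 and 4, than in replicate 2, with 3 and 1. Depth is unknown for both libraries, and its part in this difference was not tested.

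All 9 synaptic genes had a TSS peak in replicate 1, and 8 of them a shared one. Slc17a6 encodes a vesicular glutamate transporter, and its peak, the one with an RE1 match right upstream of the start site, had signals of 106 and 72 in replicates 1 and 2. Syn1 had 102 and 80 at its promoter. Both genes stood above percentile 91 in each list. Syp, an integral protein of the synaptic vesicle, had 76 and 61, Syt1, the calcium sensor of vesicle release, 68 and 54, and Snap25, a SNARE protein of vesicle fusion, 65 and 48. Gad2, the other GABA-synthesising enzyme, had 59 and 43 at a peak that holds an RE1 match. These 4 genes fell between percentiles 71.4 and 87.1.

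Camk2a, a kinase of the postsynaptic density, had 2 shared TSS peaks. The stronger, with signals of 80 and 55, lay 37853 bp inside the gene at an internal start site, and the one at the outer start site had 62 and 37. Slc17a7, another vesicular glutamate transporter, had the weakest shared TSS peak of the class, with 36 and 18 (percentiles 36.8 and 9.22). Gad1 had a TSS peak in replicate 1 alone, with a signal of 40, and it lay 13639 bp inside the gene at an internal start site. A stronger Gad1 peak, with signals of 83 and 51, lay -851 bp from a start site in replicate 1 and -831 bp in replicate 2, where a minus sign is upstream, outside both the TSS window and the distal class.

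Of the 6 cytoskeletal genes, 5 had a shared TSS peak. Stmn3, a relative of Stmn2, had signals of 90 and 42, Nefl, the light neurofilament subunit, 88 and 57, and Tubb3, the neuronal beta-tubulin, 72 and 49. Nefm, the medium neurofilament subunit, had 53 and 43 at its strongest TSS peak in each list. Dcx, a microtubule protein of migrating neurons, had a weak peak, with 39 and 21 (percentiles 43.8 and 17.3). Stmn2 had a TSS peak in replicate 2 alone, with a signal of 22. The annotated body of Nefm spans Nefl, so the Nefl peaks also lie within Nefm.

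Rbfox3, a splicing factor known as the antigen NeuN, had 4 shared TSS peaks, none strong: the highest signal was 39 in replicate 1 and 28 in replicate 2. Elavl3, which stabilises neuronal mRNAs, had a TSS peak in replicate 2 alone, with a signal of 22. The 3 secreted or granule genes had strong peaks. Scg2, a granin of dense-core vesicles, had 117 and 89, the highest TSS signal in replicate 1 among all 33 genes. Bdnf, a neurotrophin with many alternative promoters, had 4 shared TSS peaks, the strongest with 105 and 83 at 20311 bp inside the gene. Chga, the granin of chromaffin granules, had 72 and 59 at a peak that holds the RE1 printed above. The 3 genes ranged from percentile 81.6 to 96.2.

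**Figure D1:**
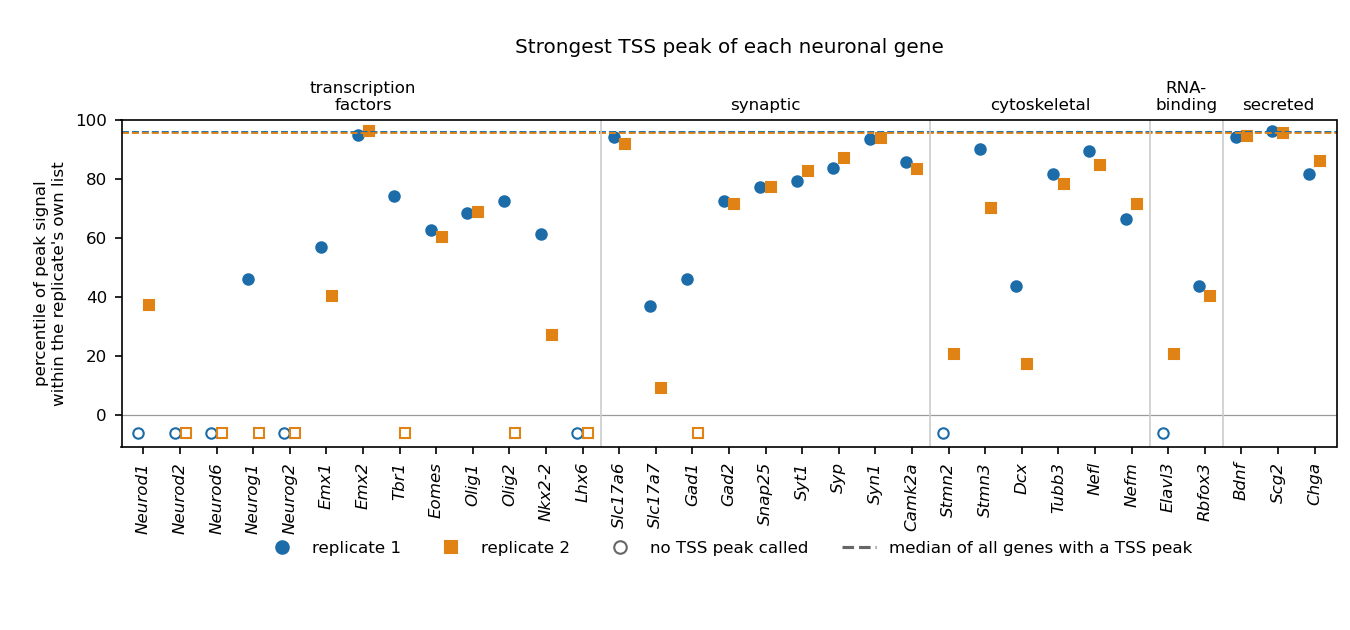
Strongest TSS peak of each of the 33 neuronal genes, as the percentile of its signal within the replicate's own list (vertical axis, percent of peaks with a lower signal), with genes along the horizontal axis by class; filled circles are replicate 1, filled squares replicate 2, open symbols below 0 mean that no TSS peak was called, and dashed lines are the medians of all genes with a TSS peak (95.9 and 95.4). Emx2 is the only transcription factor near those lines, and Neurod2, Neurod6, Neurog2 and Lhx6 have open symbols for both replicates.

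The signal where a TSS peak was present ranked the classes in the same order. The median percentile of the strongest TSS peak was 65.5 in replicate 1 and 50.2 in replicate 2 for transcription factors with one, and 80.4 and 77.8 for synaptic and cytoskeletal genes. Over all 33 genes it was 75.6 and 71.4, against 95.9 and 95.4 for all protein-coding genes. The hotspots at the start sites of members that had one were also narrower. Their median summed width was 519 bp in replicate 1 and 345 bp in replicate 2, against 1252 bp and 924 bp over all protein-coding genes with one.

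The counts were next read against genes of like CpG content at the start site. The CpG ratio is the number of CpG pairs over that expected from base composition, taken as the highest within 500 bp of any start site of the gene, and its median was 0.756 for the transcription factors, 0.573 for synaptic and cytoskeletal genes and 0.627 for all genes. Of 10 transcription factors with a ratio of at least 0.6, 5 had a shared TSS peak, beside 94.5% of all protein-coding genes with such a ratio. These 5 are Emx1, Emx2, Eomes, Olig1 and Nkx2-2, and the 5 CpG-rich genes without one are Neurod1, Neurog1, Neurog2, Olig2 and Lhx6. None of the 3 CpG-poor transcription factors, Neurod2, Neurod6 and Tbr1, had one. Of 8 synaptic and cytoskeletal genes with a ratio under 0.6, 7 had a shared TSS peak, beside 32.5% of all genes with such a ratio. They are Slc17a7, Snap25, Syt1, Syp, Camk2a, Stmn3 and Dcx. Among the 7 CpG-rich genes of this class 6 had one, all but Gad1. CpG-poor genes with a TSS peak had a median percentile of 79.1 in replicate 1 and 73.7 in replicate 2 in this class, and of 82.7 and 82.5 over all genes. CpG-rich genes with one had 81.6 and 81.5 in this class and 62.6 and 50.2 among transcription factors. Over all genes those values were 97.0 and 96.5. The shares were not adjusted for the number of start sites of a gene. With the outermost 5′ end alone, 5 of 13 transcription factors and 13 of 15 synaptic and cytoskeletal genes had a shared TSS peak. Over all genes 59.1% then had one, and this run was not split by CpG ratio.

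**Figure D2:**
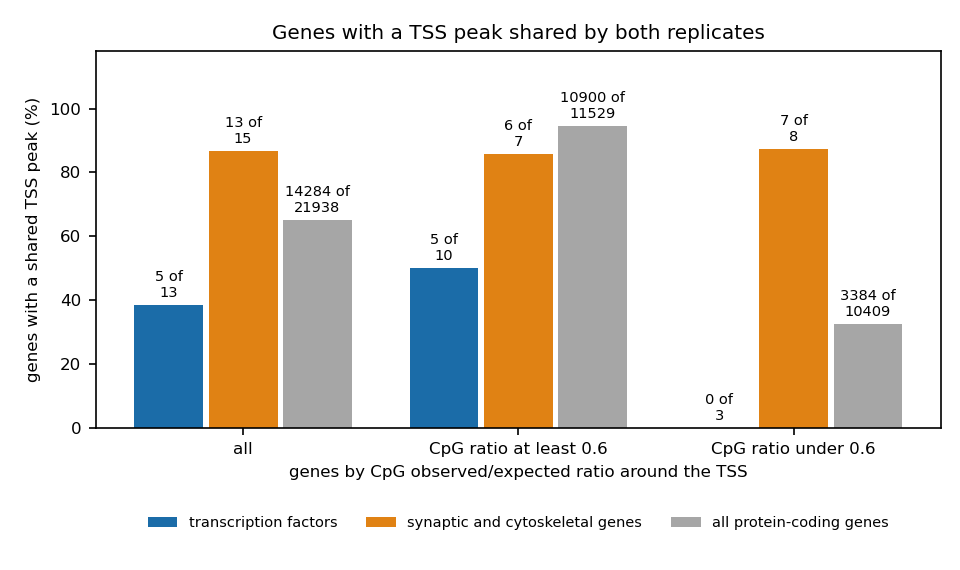
Percentage of genes with a TSS peak shared by both replicates (vertical axis), for all genes and by the CpG observed over expected ratio around the start site (horizontal axis); bars are transcription factors, synaptic and cytoskeletal genes, and all protein-coding genes, with counts above each bar. CpG-rich transcription factors (5 of 10) sit below the bar of all CpG-rich genes, and CpG-poor synaptic and cytoskeletal genes (7 of 8) above that of all CpG-poor genes.

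Distal peaks, those centred over 1 kb from every protein-coding start site and nearest to a member's within 100 kb, numbered 302 in replicate 1, 262 in replicate 2 and 168 shared. A member had a mean of 5.09 and a median of 4 shared distal peaks, against 3.46 and 1 over all protein-coding genes. Per 100 kb of the sequence nearest to each gene, the members had 4.71 shared distal peaks and all genes 4.79. In density, then, the surroundings of the neuronal genes were close to those of other genes. Of the members' distal peaks in replicate 1, 55.6% were shared, against 60.2% over all genes.

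Transcription factors and synaptic or cytoskeletal genes differed in the share of replicate 1 distal peaks that recurred. Transcription factors had 135 distal peaks in replicate 1 and 86 in replicate 2, of which 51 were shared, or 37.8% of those in replicate 1. Synaptic and cytoskeletal genes had 100 and 104, of which 73 were shared (73%), and the share over all genes was 60.2%. Set beside replicate 2, the shared peaks were the greater part in both classes, with 51 beside 86 and 73 beside 104. Over all genes they numbered 75905 beside 116833. That part was still smallest for transcription factors. Their distal count was higher in replicate 1 than in replicate 2, and how far this bears on their low share was not tested. Density of the shared ones was alike, at 4.60 per 100 kb for transcription factors and 4.83 for synaptic and cytoskeletal genes. In signal the classes stood in the reverse order to that at the TSS. The median percentile of shared distal peaks was 73.2 in replicate 1 and 67.1 in replicate 2 for transcription factors. For synaptic and cytoskeletal genes it was 63.8 and 62.1, and over all genes 62.6 in replicate 1. The replicate 1 excess among transcription factors included Tbr1, with 21 against 4 and 3 shared, and Nkx2-2, with 21 against 8 and 6 shared. Emx2 went the other way, with 19 in replicate 1 and 28 in replicate 2.

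Some genes without a shared TSS peak had strong distal ones. Neurod1 had 1 shared distal peak, the RE1 peak in its coding exon at 2440 bp, with signals of 108 and 76. That peak also lies in the bodies of Cerkl and Gm26755, and Gm26755 has a start site within 500 bp of it. The opening thus cannot be given to Neurod1 alone. Neurog2 had a peak in its own exon at 1136 bp with 88 and 55, and another at -7684 bp with 84 and 61. Neurod6, with no TSS peak, had 6 shared distal peaks, the strongest at 63112 bp with 80 and 69. For Tbr1 the 3 shared distal peaks lay in an exon and downstream of the gene, at 5838, 8858 and 9418 bp from the nearest start site, and the strongest had 91 and 63. Lhx6 had a single one, in its intron at 2742 bp, with 77 and 42. Gad1 had 4, of which the strongest, in an intron at -3711 bp from the nearest start site, had 107 and 81. Stmn2 had 7. The strongest in replicate 1 lay at 34645 bp, with 96 and 55, and the strongest in replicate 2 was the RE1 peak at -1129 bp, with 79 and 63.

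Among genes with an open TSS, Slc17a7 had the strongest shared distal peak of all 33, at -1858 bp, with signals of 117 and 109 (percentiles 96.2 and 98.5). This contrasts with its weak TSS peak of 36 and 18. Camk2a had an intronic peak with 110 and 86, Emx2 one at -40161 bp with 110 and 62, Syp an intronic one with 108 and 89, and Nkx2-2 one in its own exon with 104 and 56. Rbfox3 held most distal peaks, with 45 in replicate 1, 44 in replicate 2 and 31 shared, over 440.4 kb of nearest sequence. Its density was 7.04 per 100 kb. Syn1 had none. Emx2 followed Rbfox3 with 12 shared distal peaks, Snap25 had 10, Dcx 9, and Camk2a and Nefm 8 each.

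**Figure D3:**
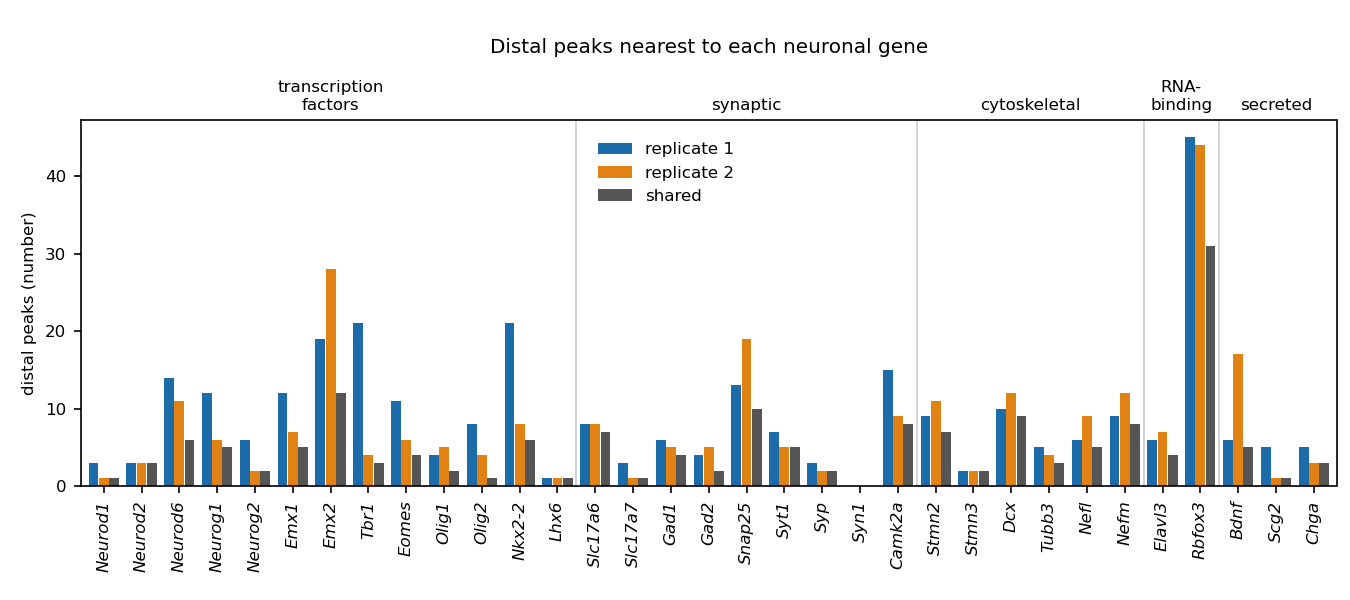
Number of distal peaks nearest to each neuronal gene (vertical axis) in replicate 1, in replicate 2 and shared by both, with genes along the horizontal axis by class. Rbfox3 stands out with 45, 44 and 31 peaks, and Tbr1 shows the widest gap between the replicates (21 and 4).

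Of the 168 shared distal peaks, 11 lay in exons, 87 in introns and 70 between genes, and 74 lay in the body of the gene they were given to. The bodies of transcription factors held 10 of their 51, and those of synaptic and cytoskeletal genes 32 of their 73. The median distance to the start site was 24.6 kb for the members and 17.6 kb over all genes. Some of these peaks overlap other genes, such as Emx2 peaks in introns of Emx2os, and the nearest start site does not show which gene a peak acts on.

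RE1 matches were frequent among the members' peaks. A match lay in 4 of their 33 shared TSS peaks, at Slc17a6, Gad2, Bdnf and Chga, beside 0.477% of all shared TSS peaks. It lay in 13 of their 168 shared distal peaks, in 10 genes, beside 0.727% of all shared distal peaks. Several of these genes, such as Bdnf, Chga and Stmn2, are textbook targets of REST. The median percentile of the distal peaks with a match was 85.3 in replicate 1, against 66.3 for the other 155 distal peaks of the members, and over all genes it was 82.7 with a match and 62.6 without. Some were weak, such as a Rbfox3 peak with signals of 34 and 25 (percentiles 31.8 and 30.6).

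Read from the sequence side, 24 RE1 matches were nearest to 17 of the 33 genes, 6 in a TSS window, 2 between the TSS and distal classes and 16 distal. Of these 24, 20 lay wholly inside a shared peak, beside 43.7% of all matches in the genome. By class, 2 matches of transcription factors were both in shared peaks, and 9 of 12 of synaptic and cytoskeletal genes. RNA-binding genes had 6 of 7 in shared peaks and secreted or granule genes 3 of 3. Matches thus occurred at 2 of 13 transcription factors and 11 of 15 synaptic and cytoskeletal genes, while 6.66% of all protein-coding genes had a match nearest to them within 100 kb. These shares were not adjusted for the length of distal sequence nearest to a gene. Its median was 71.7 kb for transcription factors, 93.7 kb for synaptic and cytoskeletal genes and 40.7 kb for all genes.

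Opening fell with each mismatch across the genome. Matches with no mismatch lay in a shared peak in 100% of cases, those with 1 in 95.6%, with 2 in 75.3% and with 3 in 29.1%. The members had 2 of 2 with no mismatch, 4 of 6 with 1, 6 of 8 with 2 and 8 of 8 with 3. Within 100 kb of any protein-coding start site, the genome's matches with 3 mismatches lay in a shared peak in 28.6% of cases. The 8 member copies with 3 mismatches belong to Neurod1, Slc17a6, Gad2, Tubb3, Nefm and, 3 of them, Rbfox3. With 4 mismatches, 5 of 26 copies near the members and 3.95% of those in the genome lay in a shared peak. These counts of member copies are small, and copies in 1 gene are not independent.

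**Figure D4:**
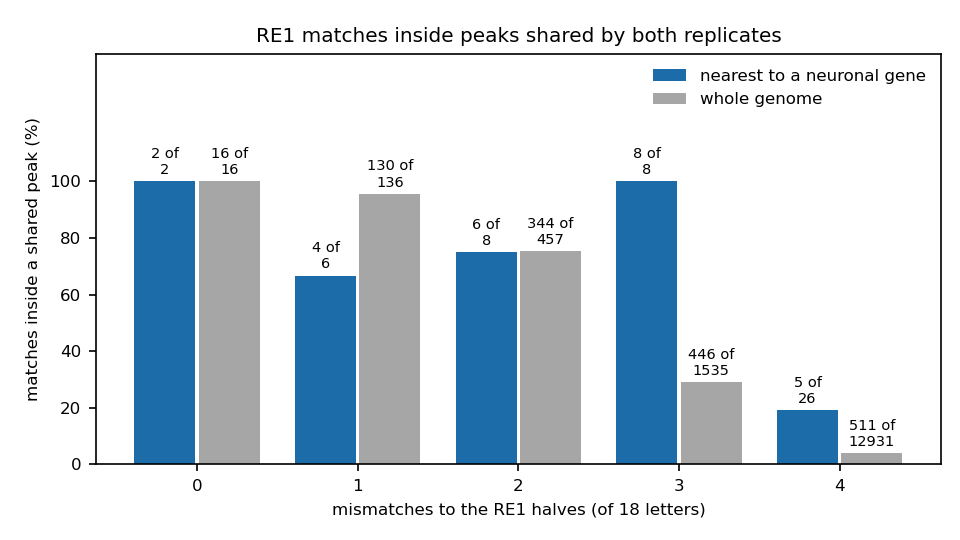
Percentage of RE1 matches that lie wholly inside a peak shared by both replicates (vertical axis) by the number of mismatches to the 18 fixed letters (horizontal axis), for matches nearest to a neuronal gene and for the whole genome, with counts above each bar. The genome's bars fall from 100% with no mismatch to 29.1% with 3, where all 8 members' matches are inside a shared peak.

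The perfect copy of Gad1 lay in an intron, at -2333 bp from an internal start site and 6637 bp from its outer 5′ end, in a peak with signals of 98 and 75. That of Stmn2 lay at -1120 bp from its start site in a peak with 79 and 63. Both genes are those of their class without a shared TSS peak, though Gad1 had a TSS peak in replicate 1 and Stmn2 one in replicate 2. Snap25 had its copy, with 1 mismatch, 870 bp into the gene in a peak with 115 and 73, which is stronger than its TSS peak of 65 and 48. The Nefm copy with 2 mismatches lay in a peak with 83 and 60, also above its TSS values of 53 and 43. Both of these peaks lie between the TSS and distal classes.

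Elavl3 had its copy in a peak with 72 and 46, at -1857 bp, beside a TSS peak of 22 in replicate 2 alone. The Dcx copy, 28165 bp into the gene, had 51 and 28, and the Tubb3 copy 59 and 14. The Tubb3 peak was weak in replicate 2 (percentile 3.16) and the copy itself lay in no hotspot there. Bdnf had its copy in an exon at 158 bp, with 73 and 53, and Chga a second copy at -4265 bp, with 101 and 73. At Neurod2, the copy at 15396 bp downstream had 80 and 56, although no TSS peak was called there.

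The remaining 4 copies were not wholly in a shared peak. Those of Syp and Syn1 sat at the edge of their TSS peaks, that of Syn1 at 5 bp from the peak in both replicates and that of Syp at 11 bp in replicate 1 and partly inside the peak in replicate 2. Each lay in a hotspot with the ceiling value of 100 (−log10 q) in both replicates. The Rbfox3 copy with 1 mismatch lay partly inside its peak, in a hotspot at the ceiling in both replicates. Only the Camk2a copy, with 1 mismatch, lay in no hotspot in either replicate. It is in an exon, 689 bp from the nearest peak in each replicate. Counting hotspots of both replicates, 22 of the 24 copies were open. Across the genome, hotspots of both replicates held 16 of 16 matches with no mismatch and 133 of 136 with 1. They held 355 of 457 with 2 mismatches and 487 of 1535 with 3.

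**Figure D5:**
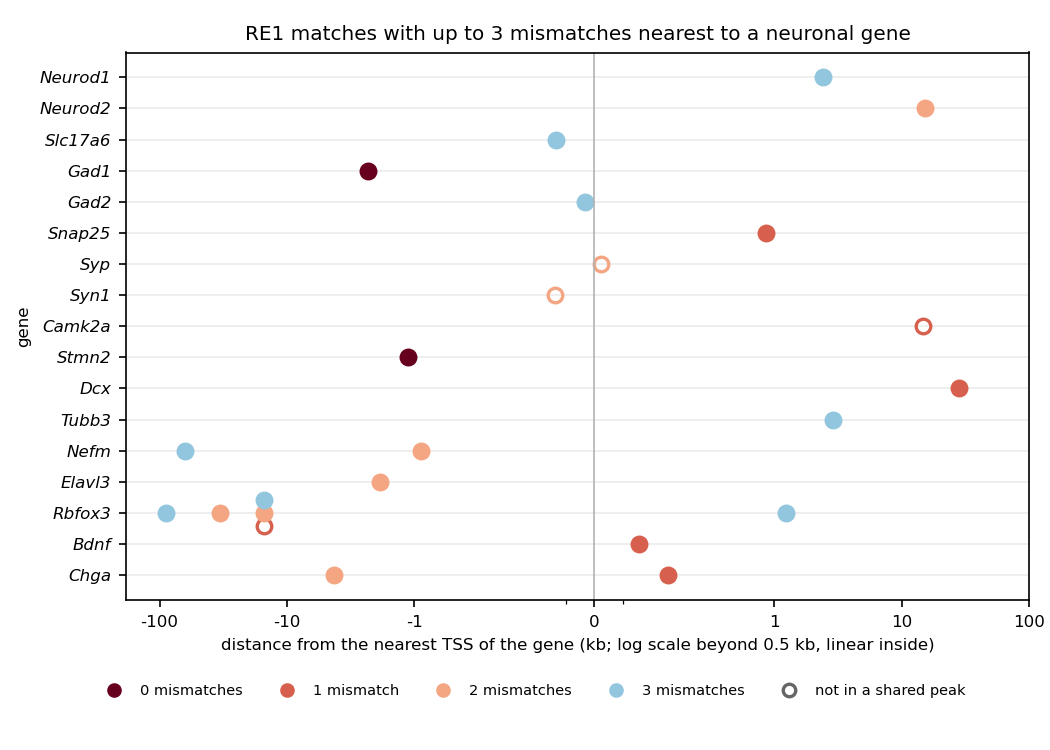
Position of each RE1 match with up to 3 mismatches relative to the nearest start site of its neuronal gene (horizontal axis, kb, log scale beyond 0.5 kb and linear inside; positive is downstream), 1 line per gene and colour by mismatches; close matches of Rbfox3 are drawn apart vertically. Filled circles lie wholly in a shared peak, and the 4 open circles belong to Syp, Syn1, Camk2a and Rbfox3.

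Other motifs occurred in the members' distal peaks at shares nearer to those of all genes. The CTCF core, CCNNNA followed directly by GGNGGC on either strand, was in 15 of 168 (8.93%), against 6.84% over all shared distal peaks. The E-box CAGATG, favoured by neurogenic factors, was in 28 (16.7%) against 19.1%. CAGCTG, an E-box used by myogenic factors among others, was in 33 (19.6%) against 20.1%. CAGCTG is its own reverse complement, so both strands are 1 search. A match says only that the letters occur.

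Genes of the same kinds outside the list were counted with the same rule. Among 18 other neural transcription factors, 10 had a shared TSS peak (55.6%), of which Lhx2, Sox2 and Myt1l had most shared peaks, and Fezf2 and Hes5 were among those without a shared TSS peak. Among 25 other neuronal effectors, 21 had one (84%), with Celf4, Ncam1 and Map2 among those with most shared peaks and Nefh and Slc17a8 among those without a shared TSS peak. Of these transcription factors, 7 of 13 CpG-rich and 3 of 5 CpG-poor genes had one, where the members had 5 of 10 and 0 of 3. Of these effectors, 13 of 16 CpG-rich and 8 of 9 CpG-poor genes had one. RE1 matches in a shared peak occurred at 3 of the 18 transcription factors and 10 of the 25 effectors, beside 2.64% of all protein-coding genes. By the same count the 33 genes had 13, with 2 of 13 transcription factors and 7 of 15 synaptic and cytoskeletal genes. The RE1 counts were not adjusted for the length of sequence nearest to each gene. In the shared TSS peaks and in the RE1 matches, the order of the classes was the same as among the 33 genes.

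All 10 genes of the REST complex list had a shared TSS peak, and Rest itself had signals of 108 and 77. All 10 Polycomb genes had one too. Every gene of these lists had a CpG ratio of at least 0.6, and 94.5% of all protein-coding genes with such a ratio had one. Marker genes of cell types were counted too, beside 65.1% of all protein-coding genes with a shared TSS peak. All 10 limb mesenchyme genes, of which 6 are CpG-rich, had one. They had a mean of 15.4 shared distal peaks, against 3.46 over all genes. For cells whose axons or sheaths are in the limb, 5 of 10 peripheral neuron genes and 3 of 6 Schwann cell genes had a shared TSS peak. These lists are small. TSS peaks in replicates 1 and 2 numbered 12 and 9 for the peripheral neuron list and 5 and 8 for the Schwann cell list, and Th, Dbh and Chat had none in either replicate. The part of such cells in the members' values was not tested.

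As a whole the libraries held 208674 peaks in replicate 1 and 196593 in replicate 2 on the autosomes, X and Y, with median signals of 42 and 31. Of these, 61.2% of replicate 1 peaks were shared. No read counts were used, so a gene without a peak is one where none was found at an unknown depth.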

How the data were processed

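DNase-seq peaks and hotspots of 2 limb libraries were analysed. The peak list gives a deposited signal, the authors' own whole-number value on an unstated scale, for peaks that are mostly 150 bp wide. The hotspot list gives a deposited −log10 q-value with a ceiling of 100. Peaks were called per library on mm10, per the labels, while the aligner and caller are not stated there. The replicates share a donor identifier in the labels, so the spread between them may be technical.

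Genes and start sites came from GENCODE M21 and sequence from the matching GRCm38 reference. Shared peaks, TSS windows, distal peaks (nearest protein-coding start site within 100 kb), CpG ratios and RE1 matches were computed with Python 3.11.15 and NumPy 2.4.6, figures with matplotlib 3.10.9, and the motif and overlap code was tested on simulated data. Signals were compared as percentiles within a list. Peaks centred between 500 and 1000 bp of a start site that missed its window belong to neither class.

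With 1 group there is no contrast, so counts and medians stand beside those of all genes, with no test. All 33 members are named, with the strongest TSS and distal peaks. In each other list, naming went to 3 genes with the highest number of shared peaks and to the alphabetically first 3, at most, that lack a shared TSS peak. Some genes that this would name are not reported here. The members, lists and motifs were chosen with earlier results of these data known. Sequences beyond the best match of each of 6 genes were chosen after their values were seen, and none is shown for chromosome 18 or, beyond the sites, for a UTR. The alternatives were another overlap, stronger peaks, hotspots, single replicates, other windows and reach, and other mismatch limits.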

Additional observations from a re-analysis of the deposited data

How the results depend on the processing

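Keeping the 50000 peaks of highest signal in each replicate lowered most counts: 12 members with a shared TSS peak (55.5% of all genes) and 13 with one in either replicate (59.7% of all genes), 1 transcription factor and 8 synaptic and cytoskeletal genes, and 45 shared distal peaks, of which 19 belong to transcription factors and 17 to synaptic and cytoskeletal genes. Using 1 replicate alone gave 25 to 26 members, 6 to 8 transcription factors, 14 synaptic and cytoskeletal genes and 36 other neural genes with a TSS peak. It gave 262 to 302 distal peaks, 86 to 135 of them of transcription factors and 100 to 104 of synaptic and cytoskeletal genes, and 17 member peaks with an RE1 match. Allowing at most 2 mismatches left 10 member peaks with an RE1 match, and at most 4 gave 21. In every alternative run on both classes (overlap, stronger peaks, hotspots, single replicates, windows of 250 and 1000 bp, outermost 5′ end), fewer transcription factors (1 to 8 of 13) than synaptic and cytoskeletal genes (8 to 14 of 15) had a TSS peak. Read depth is unknown, so no detection limit can be given.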
